A study of Mus musculus with 44 samples.

Results

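The Toll-like receptors (TLRs) were examined as 10 genes, Tlr1, Tlr2, Tlr3, Tlr4, Tlr6, Tlr7, Tlr9, Tlr11, Tlr12 and Tlr13, which were taken by symbol from the 14699 genes listed for these libraries. The list leaves out 2 other TLRs of the table, Tlr5 and Tlr8, whose means of 0.601 and 0.482 CPM over all libraries were below those of the 10, and which are counted with the pathway genes here. All 10 passed the filter on low values, at least 1 CPM (reads scaled to a library total of 1000000) in at least 5 of the 44 libraries, as did 11963 genes in all. CD45+CD11c+MHCIIhigh cells were sorted from draining inguinal lymph nodes 24 h after a subcutaneous injection, and RNA-seq was performed on 1 library per mouse at ZT3, ZT9, ZT15 or ZT21, where ZT counts hours from light onset. The study asked how the state of these dendritic cells (DCs) depends on the time of day and on their clock.

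Control mice injected with B16-F10-OVA cells, a melanoma line that carries ovalbumin, gave 20 libraries (5 per timepoint, labelled WT). Mice labelled KO received the same cells and gave 12 libraries (3 per timepoint), and per the methods these are Clec9a-cre:Bmal1 flox mice (Bmal1ΔcDC), homozygous for the floxed gene and heterozygous for a Cre that is driven by Clec9a, a gene of conventional DCs and their precursors. Control mice injected with PBS in place of tumour cells, the sham condition, gave the other 12 libraries (3 per timepoint, labelled WT and PBS). All mice were females of 8 to 12 weeks. The paper reports independent experiments for the mice with tumour cells, but the labels do not assign mice to experiments or batches.

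TLRs are pattern recognition receptors that let DCs sense microbes and damaged cells. Those at the cell surface read lipoproteins and endotoxin, those in endosomes read nucleic acids or the protozoan protein profilin, and most signal through the adaptor MyD88 to NF-κB and interferon regulatory factors, which drive maturation and cytokine production. DC subsets differ in the TLRs they express, and TLR3, TLR11 and TLR12 are known from the cDC1 lineage, whereas TLR7 and TLR9 are best known from plasmacytoid DCs (pDCs) and B cells.

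Reads on genes per library numbered 20088012 to 28962671 with tumour cells in control mice, 29406729 to 55799162 for the label KO and 28003328 to 49590054 in sham mice. Depth therefore moved with both the genotype and the treatment, and 1 read stood for 0.0179 to 0.0498 CPM. Arntl, which encodes BMAL1 and is the floxed gene, was not lower in the libraries labelled KO. It lay between 11.5 and 38.0 CPM there (19.9 ± 6.91, SD, n = 12) and between 8.67 and 24.4 CPM in control mice with tumour cells (14.9 ± 3.65, SD, n = 20), a difference of 0.38 (SE 0.12) on the log2 scale (limma, adjusted p = 0.0153), so that these libraries are named here by their label. A count over the whole gene does not separate the floxed exon. Markers of DCs were high in every library. Those of the sort gate and of DCs at large, 8 genes, were highest in sham mice by the median of their sum (22705 CPM). That median was 18381 CPM with tumour cells in control mice and 19143 CPM in the libraries labelled KO. The markers of migratory DCs, in contrast, were lowest in sham mice by their median. These 8 markers summed to 16423 to 23247 CPM with tumour cells in control mice (median 19782). The sums were 17060 to 21170 CPM in the libraries labelled KO (18900) and 12708 to 19040 CPM in sham mice (16237). Markers of other cells moved with the groups, and the sum of the 10 monocyte and macrophage markers was 419 to 1112 CPM with tumour cells in control mice, 884 to 3325 CPM in the libraries labelled KO and 1819 to 3316 CPM in sham mice. In the same order the 6 NK cell markers summed to 4.80 to 20.3, 11.4 to 72.2 and 39.5 to 351 CPM, the 9 T cell markers to 244 to 600, 387 to 920 and 499 to 1100 CPM, and the 8 cDC2 markers to 148 to 299, 175 to 680 and 253 to 425 CPM. The 2 Langerhans cell markers had medians of 64.6, 109 and 75.6 CPM. In such bulk samples, fewer cells of a type and less RNA per cell cannot be told apart.

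**Figure D1:**
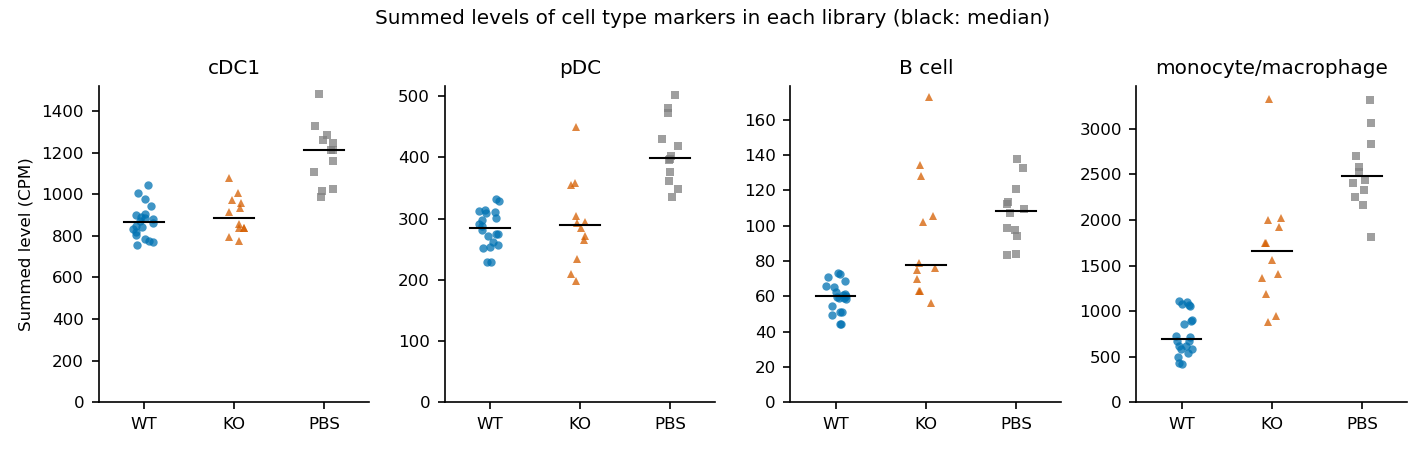
Summed level (CPM) of the markers of 4 cell types in each library, by group (points, 20 WT, 12 KO and 12 PBS libraries, black line for the median). The monocyte and macrophage sums of sham mice, 1819 to 3316 CPM, lie above those of all control mice with tumour cells, 419 to 1112 CPM.

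Tlr1 and Tlr6 are neighbours on chromosome 5, and their values are not independent. A stretch of both is shown here because its few differing bases are what separates reads of one gene from reads of the other. Tlr1 (mm10, chr5:64924679-64933563, minus strand) and Tlr6 (chr5:64952031-64960097, minus strand) shared 454 runs of 50 bases in their exons, 14.8% of those of Tlr1 and 12.3% of those of Tlr6, whereas the other 44 pairs of receptors shared none. The longest identical stretch had 229 bases, all coding, and a second had 208. The 78 bases that run from the end of one into the start of the other hold 2 differences, and are given 5′ to 3′ from the GRCm38 genome with the differing bases in capitals (chr5:64925479-64925556 for Tlr1, chr5:64953770-64953847 for Tlr6).
Tlr1: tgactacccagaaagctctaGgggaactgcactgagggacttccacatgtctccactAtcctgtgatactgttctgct
Tlr6: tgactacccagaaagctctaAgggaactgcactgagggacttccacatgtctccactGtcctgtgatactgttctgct

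The deposited values carry a trace of this. Tlr1 and Tlr6 were the only receptors with fractions of a read, each in 41 of 44 libraries, and the sum of the 2 genes was a whole number of reads in 44 of 44, within a tolerance of 0.01 reads. How shared reads were divided is not given in the sources used here. The split between Tlr1 and Tlr6 is therefore uncertain in each library, and their sum is the firmer value.

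Across the 44 libraries the receptors fell into an abundant and a sparse set. Per kb of exon, Tlr2 was highest at 14.4 ± 3.24 CPM per kb (SD, n = 44), followed by Tlr11 (8.52 ± 1.86), Tlr12 (6.12 ± 1.90), Tlr13 (5.06 ± 3.02) and Tlr1 (4.76 ± 1.45). A gap followed, since Tlr1 lay above Tlr7 in 44 of 44 libraries. Tlr7 had 0.707 ± 0.520 CPM per kb, Tlr6 0.473 ± 0.341, Tlr9 0.454 ± 0.306, Tlr3 0.232 ± 0.260 and Tlr4 0.154 ± 0.230. Tlr2 was above Tlr11 in 43 of 44 libraries and Tlr11 above Tlr12 in 38. The neighbours Tlr12 and Tlr13 (29 of 44), Tlr13 and Tlr1 (25), Tlr7 and Tlr6 (26) and Tlr6 and Tlr9 (18) changed places between libraries, within their spread. The order of the means also differed by group, though neighbours again changed places between libraries. Tlr13 had rank 3 in the libraries labelled KO, at a mean of 7.13 CPM per kb against 6.76 for Tlr12. It lay above Tlr12 in 6 of those 12 libraries, and its mean included 20.7 CPM per kb in KO ZT21 replicate 1. In control mice with tumour cells its mean was below that of Tlr1 (4.23 against 5.08), with Tlr1 higher in 11 of 20 libraries. The same held in sham mice (4.38 against 4.53), with Tlr1 higher in 5 of 12. By its mean Tlr9 had rank 6 in control mice with tumour cells, above Tlr7 and Tlr6, but below both in the libraries labelled KO and in sham mice. It lay above Tlr7 in 11 of 20 control mice with tumour cells, and Tlr6 lay above it in 6 of 12 libraries labelled KO.

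**Figure D2:**
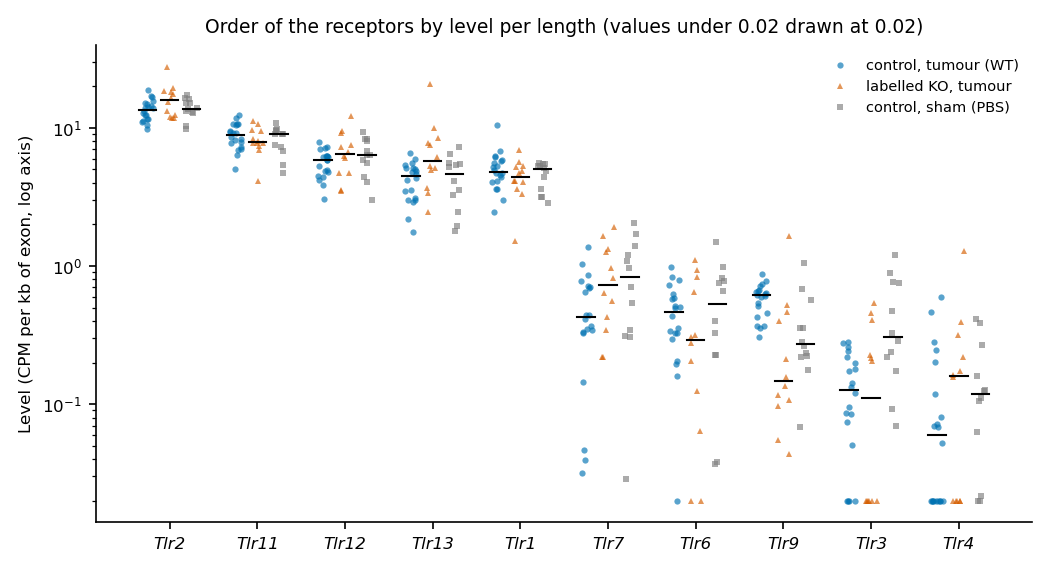
Level of each receptor in each library (CPM per kb of exon, log axis, points) with the median of each group (black line), ordered by the mean over 44 libraries. Values under 0.02, zeros included, are drawn at 0.02. Tlr2 to Tlr1 form an upper set with means of 14.4 to 4.76 CPM per kb, and Tlr7 to Tlr4 a lower one with means of 0.707 to 0.154.

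Depth sets the precision of the lower set. Tlr4 had a median of 12 reads per library, Tlr3 24.5, Tlr9 44, Tlr6 46.0 and Tlr7 69.5, against 464 to 1241 for the 5 abundant receptors. Tlr4 had no read in 14 of 44 libraries, Tlr3 in 8 and Tlr6 in 3. A count of 0 allows up to 3 reads, or 0.0538 to 0.133 CPM for Tlr4 and Tlr3, and this covers counting error only, since reads of amplified cDNA are not independent molecules. Fold changes below are differences of log2(CPM + 0.5), which understate the change of sparse genes.

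Among the receptors of the cell surface, Tlr2, which pairs with TLR1 or TLR6 to bind bacterial lipoproteins, was the most abundant. In control mice with tumour cells it ranged from 29.6 to 56.5 CPM around a median of 40.8, in the libraries labelled KO from 35.3 to 82.9 around 47.9, and in sham mice from 29.7 to 52.4 around 41.5. The groups overlapped over most of their range, and the highest value was that of KO ZT21 replicate 1. Tlr1 had medians of 16.2, 14.8 and 16.8 CPM in the same order, and Tlr6 of 1.72, 1.08 and 1.98 CPM. Tlr4, the endotoxin receptor, had medians of 0.335, 0.892 and 0.658 CPM. It was highest in KO ZT15 replicate 2, at 7.16 CPM, which was also the library with the highest Cd14 (90.2 CPM) and the highest sums of monocyte and macrophage (3325 CPM), cDC2 (680 CPM), B cell (173 CPM) and melanoma markers (22.1 CPM) of all 44. The part of other cells in that value was not tested.

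Among the receptors of the endosome, Tlr3 binds double-stranded RNA, Tlr7 single-stranded RNA, Tlr9 unmethylated CpG DNA and Tlr13, which humans lack, a bacterial ribosomal RNA sequence. Tlr13 was the most abundant of these nucleic acid sensors per length. Tlr11 and Tlr12 work together on profilin, and both belonged to the abundant receptors. Tlr11 spanned 16.5 to 40.3 CPM in control mice with tumour cells (median 29.2), 13.6 to 36.6 in the libraries labelled KO (25.9) and 15.3 to 35.4 in sham mice (29.7). The values of Tlr12 were 9.64 to 25.1 (18.5), 11.2 to 38.6 (20.4) and 9.52 to 29.5 CPM (20.2). The plot by timepoint shows each receptor in every library.

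**Figure D3:**
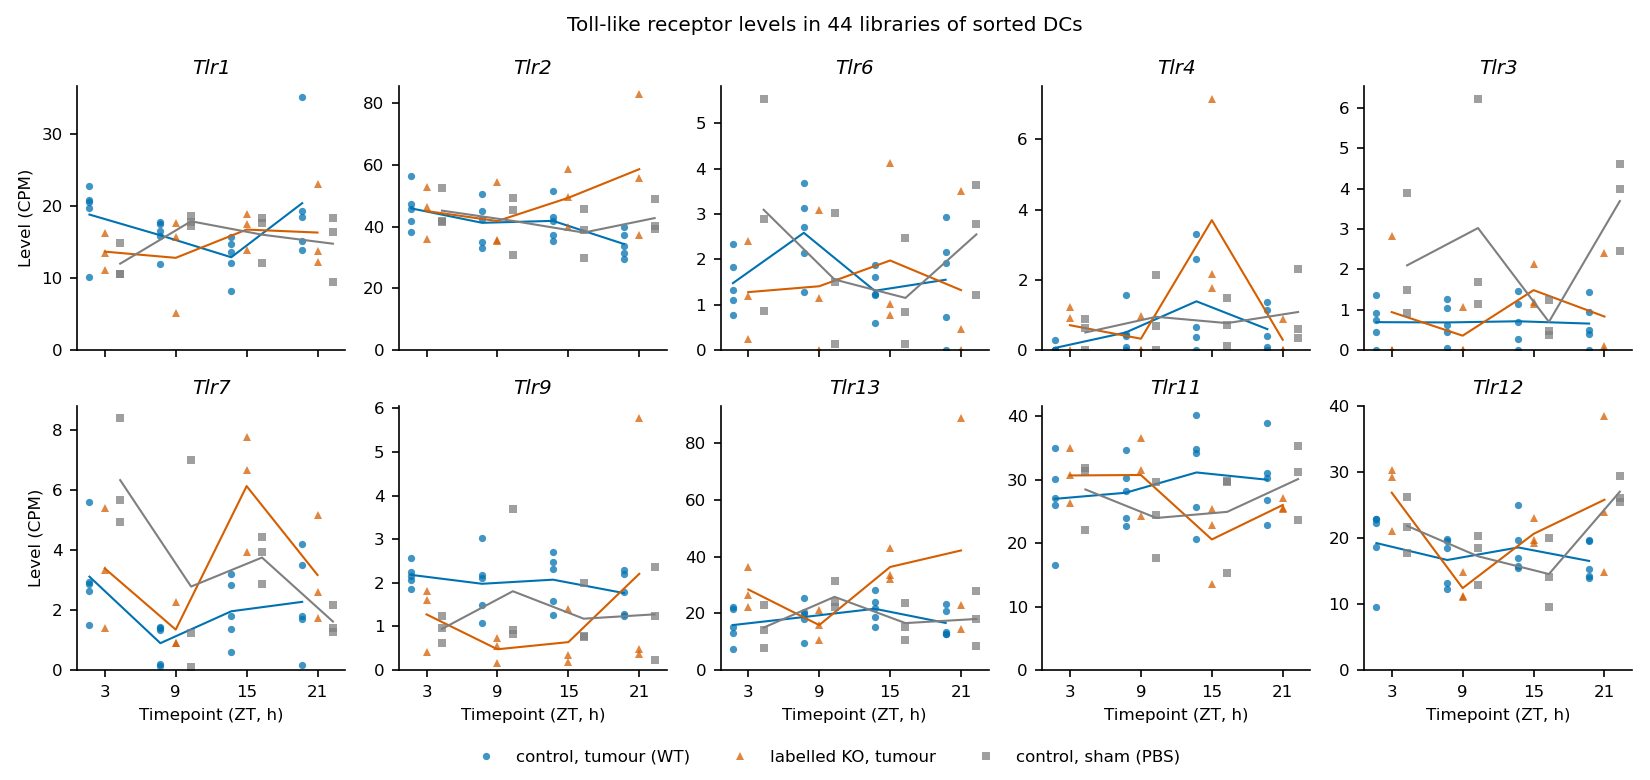
Level (CPM, linear axis from 0) of each receptor against timepoint (ZT, h) in each library (points) with the mean of each condition (lines), for 5 WT, 3 KO and 3 PBS libraries per timepoint, shifted sideways by group. Tlr9 of the libraries labelled KO lies below all control mice with tumour cells at ZT3 and ZT9, and the mean of Tlr3 in sham mice is highest at ZT21, at 3.69 CPM, while its highest single library, at 6.23 CPM, is a sham mouse of ZT9.

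The first comparison asked whether the receptors follow the time of day. A cosinor of a 24-h period was fitted in each group with limma. None of the 10 receptors passed an adjusted p of 0.05 in any group, whereas 0.0251% of all genes did in control mice with tumour cells, 0% in the libraries labelled KO and 0% in sham mice. At an unadjusted p under 0.05, 1 of 10 receptors was found in each group, against 9.2%, 10.5% and 7.38% of all genes, which is the share of the background.

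In control mice with tumour cells that receptor was Tlr4 (unadjusted p = 0.0373, adjusted p = 0.519), with an amplitude of 0.69 and a fitted peak at ZT15.3. Its values were 0, 0, 0, 0.290 and 0 CPM at ZT3, 1.56, 0.0929, 0.388, 0.451 and 0 CPM at ZT9, 3.30, 0.379, 0.656, 0 and 2.60 CPM at ZT15 and 1.37, 1.13, 0.398, 0.0818 and 0 CPM at ZT21. The timepoints overlapped, and the ZT15 mean rested on 2 mice above 2 CPM.

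Tlr12 had the smallest p of the receptors in the libraries labelled KO (unadjusted p = 0.0407, adjusted p = 0.464, amplitude 0.50, peak at ZT22.4) and in sham mice (unadjusted p = 0.0274, adjusted p = 0.663, amplitude 0.45, peak at ZT23.9). It measured 29.3, 21.2 and 30.3 CPM at ZT3, 11.2, 14.9 and 11.2 CPM at ZT9, 23.1, 19.2 and 19.7 CPM at ZT15 and 38.6, 24.04 and 14.9 CPM at ZT21 in the libraries labelled KO. In sham mice it measured 26.2, 21.6 and 17.8 CPM at ZT3, 12.9, 18.6 and 20.3 CPM at ZT9, 14.1, 9.52 and 20.1 CPM at ZT15 and 26.2, 29.5 and 25.5 CPM at ZT21. The sham mice of ZT21 were therefore above those of ZT9 and ZT15, while control mice with tumour cells had an amplitude of 0.0042. KO ZT15 replicate 2 and KO ZT21 replicate 1, called here the 2 libraries that stood apart, were chosen after the data were seen. Between mice of a condition, the correlation of log2 levels was 0.924 to 0.962 at KO ZT21. It was 0.952 to 0.965 at KO ZT15, near the 0.953 to 0.967 of KO ZT3. Without these 2 libraries, 0 receptors had an unadjusted p under 0.05 in the libraries labelled KO. That fit also has fewer libraries, so the lost p does not show what these 2 contributed. For Tlr12, KO ZT21 replicate 1 was the highest library (38.6 CPM), while KO ZT15 replicate 2 (19.2 CPM) lay near the others of its timepoint.

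The study set ZT9 against ZT21, and none of the receptors passed the adjusted threshold in that contrast (limma), as did 0.226%, 0.00836% and 0% of all genes in the 3 groups. At an unadjusted p under 0.05 there were 0, 1 and 1 receptors, against 11.5%, 10.9% and 5.32% of all genes. The receptor was Tlr12 both times, in the direction taken by 8.89% of all genes in the libraries labelled KO and 1.71% in sham mice. It was lower at ZT9 by -0.94 (SE 0.30, unadjusted p = 0.0111, adjusted p = 0.361) in the libraries labelled KO and by -0.66 (SE 0.27, unadjusted p = 0.0332, adjusted p = 0.920) in sham mice. The median of all genes was itself at -0.12 for ZT9 against ZT21 in the libraries labelled KO, and -0.00 after median-of-ratios scaling. In control mice with tumour cells the difference of Tlr12 was 0.00 (95% interval -0.46 to 0.46).

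Whether the time course differed between groups was tested by the interaction. None of the 10 receptors passed an adjusted p of 0.05, as did 0.0502% of all genes for genotype by time and 0% for treatment by time. At an unadjusted p under 0.05 there were 0 receptors for genotype (18.3% of all genes) and 1 for treatment (11.9%), which was Tlr12 (unadjusted p = 0.0394, adjusted p = 0.391). The different cosinor results of Tlr12 in the groups are thus not shown to differ after adjustment.

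Averaged over the timepoints, the libraries labelled KO were compared with control mice, both with tumour cells. Of the 10 receptors, 2 passed an adjusted p of 0.05, 1 lower (Tlr9) and 1 higher (Tlr13), against 33.7% of all genes (23.5% higher and 10.2% lower), so that the share among the receptors was not above the background. Without adjustment, 4 receptors had a p under 0.05, against 43% of all genes. Of the called genes, 69.8% were higher as deposited and 50.0% after median-of-ratios scaling.

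Tlr9 (chr9:106222598-106226883, plus strand) ranged from 1.07 to 3.04 CPM in control mice with tumour cells, around a median of 2.14. In the libraries labelled KO it measured 0.405, 1.81 and 1.61 CPM at ZT3, 0.153, 0.734 and 0.546 CPM at ZT9, 1.39, 0.192 and 0.340 CPM at ZT15 and 5.77, 0.473 and 0.374 CPM at ZT21, around a median of 0.509. Of these 12 libraries, 11 were below the control median, and KO ZT21 replicate 1 held the highest value of all 44. The averaged difference was -0.92 (SE 0.22, 95% interval -1.38 to -0.46, limma, adjusted p = 0.00235), and on this log2 scale it was negative at each of the 4 timepoints. At ZT21 the direction depended on the scale, since the log2 difference was -0.35 while the mean was 2.21 CPM in the libraries labelled KO, with the 5.77 CPM of replicate 1, and 1.77 CPM in control mice. Leaving out any 1 library kept the call (adjusted p from 6.58e-06 to 0.00661).

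Tlr9 is best known from pDCs and B cells, though not only from them, and their markers were set beside it. The 8 pDC markers summed to 229 to 332 CPM in control mice with tumour cells (median 284) and to 199 to 451 CPM in the libraries labelled KO (median 289). The 10 B cell markers summed to 44.5 to 73.3 CPM (median 60.1) and 56.1 to 173 CPM (median 77.5). Pax5, 1 of these 10, was listed at 0 in 7 of 20 and 11 of 12 of these libraries, but was too sparse to test, with 0 of 44 libraries at 1 CPM. The sum of the 10, which includes it, had the higher median in the libraries labelled KO. Neither median was lower in the libraries labelled KO, and the part of these cells in the difference was not tested. Within conditions, Tlr9 and the pDC markers had a Pearson r of -0.492 (permutation p = 0.0696, adjusted p = 0.774) and a Spearman rho of -0.296 (permutation p = 0.12) over the 44 libraries, with r = -0.280 without the 2 libraries farthest from the median. Since the depth separates the same groups, depth and genotype cannot be told apart.

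Tlr13 (chrX:106143204-106160493, plus strand) ranged from 7.60 to 28.1 CPM around a median of 19.3 in control mice with tumour cells. In the libraries labelled KO it measured 22.2, 26.6 and 36.4 CPM at ZT3, 15.9, 10.5 and 21.2 CPM at ZT9, 33.7, 43.1 and 32.2 CPM at ZT15 and 89.0, 22.9 and 14.6 CPM at ZT21, around a median of 24.7. Of these 12 libraries, 9 were above the control median, and at ZT3 and ZT15 the lowest of them was above the highest control mouse, at ZT3 only just (22.17 against 22.15 CPM). The averaged difference was 0.59 (SE 0.20, 95% interval 0.17 to 1.01, limma, adjusted p = 0.0272), positive at 3 of 4 timepoints and -0.22 at ZT9. The call was lost with median-of-ratios scaling (0.50, adjusted p = 0.0550). It was also lost without KO ZT21 replicate 1 (0.40, adjusted p = 0.0658), without KO ZT3 replicate 3 (0.54, adjusted p = 0.0548) or without KO ZT9 replicate 3 (0.53, adjusted p = 0.0585), and without both libraries that stood apart (0.37, adjusted p = 0.109). The monocyte and macrophage sum was higher in the same group, as given above. Within conditions, Tlr13 and these markers had a Pearson r of -0.0462 (permutation p = 0.778, adjusted p = 0.923) and a Spearman rho of -0.0743 (permutation p = 0.679) over the 44 libraries, with r = -0.108 without the 2 libraries farthest from the median and -0.0944, 0.0461 and -0.135 within control mice with tumour cells, the libraries labelled KO and sham mice. Their part in the difference between the groups was not tested.

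Of the other 8 receptors, Tlr7 (0.66, 95% interval 0.10 to 1.22, unadjusted p = 0.0223, adjusted p = 0.0620) and Tlr2 (0.22, 95% interval 0.01 to 0.44, unadjusted p = 0.0389, adjusted p = 0.0958) came nearest to the threshold. Tlr7 lay between 0.129 and 5.62 CPM in control mice with tumour cells (median 1.75) and between 0.890 and 7.79 CPM in the libraries labelled KO (2.97). With the replicate number as a block, Tlr7 passed (0.88, adjusted p = 0.0171), while it was 0.52 (adjusted p = 0.181) without both libraries that stood apart. Tlr2 was 0.13 (adjusted p = 0.350) with median-of-ratios scaling. The intervals of Tlr11 (-0.34 to 0.13) and Tlr12 (-0.06 to 0.48) bound the difference that these libraries allow for the profilin receptors, whereas those of Tlr4 (-0.24 to 1.02), Tlr6 (-1.05 to 0.27) and Tlr3 (-0.67 to 0.63) were wide. The sum of Tlr1 and Tlr6 differed by -0.21 (SE 0.15, adjusted p = 0.302).

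The last comparison set tumour cells against the sham injection in control mice, averaged over the timepoints. It uses the same 20 libraries of control mice with tumour cells as the comparison of genotypes, so the 2 are not independent. Of the 10 receptors, 2 passed an adjusted p of 0.05, Tlr3 lower and Tlr9 higher with tumour cells, against 37.9% of all genes (13.3% higher and 24.6% lower). The same 2 had an unadjusted p under 0.05, against 45.8% of all genes. Of the called genes, 35.1% were higher as deposited and 46.1% after median-of-ratios scaling.

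Tlr3 (chr8:45395665-45411080, minus strand) measured 3.89, 0.906 and 1.49 CPM at ZT3, 1.14, 6.23 and 1.69 CPM at ZT9, 0.483, 0.363 and 1.24 CPM at ZT15 and 3.999, 4.62 and 2.45 CPM at ZT21 in sham mice, around a median of 1.59. In control mice with tumour cells it ranged from 0 to 1.47 CPM around a median of 0.660, and all 20 of these libraries were below the sham median. The groups overlapped at ZT3, ZT9 and ZT15 and not at ZT21. The averaged difference was -1.13 (SE 0.26, 95% interval -1.67 to -0.60, limma, adjusted p = 0.00105), close to 0 at ZT15 (-0.08, with means of 0.712 CPM with tumour cells and 0.697 CPM in sham mice) and -1.97 at ZT21, and it kept its call without any 1 library (adjusted p from 0.000604 to 0.00343). In the libraries labelled KO, Tlr3 ranged from 0 to 2.82 CPM around a median of 0.579.

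Tlr3 is a gene of the cDC1 lineage, and the 8 cDC1 markers summed to 757 to 1045 CPM in control mice with tumour cells and to 986 to 1483 CPM in sham mice, with a small overlap. Tlr11 and Tlr12, which are also known from cDC1, had averaged differences of 0.12 (95% interval -0.14 to 0.37) and -0.15 (95% interval -0.41 to 0.11). Within conditions, the log2 level of Tlr3 and the mean log2 level of the cDC1 markers had a Pearson r of 0.105 (permutation p = 0.565, adjusted p = 0.822) and a Spearman rho of 0.0356 (permutation p = 0.842) over the 44 libraries, and r was 0.0318 without the 2 libraries farthest from the median. Within control mice with tumour cells, the libraries labelled KO and sham mice, r was -0.170, 0.349 and 0.233. The monocyte and macrophage markers were also lower with tumour cells, and over the same libraries Tlr3 and these markers had a Pearson r of 0.272 (permutation p = 0.0594, adjusted p = 0.806) and a Spearman rho of 0.321 (permutation p = 0.0466, adjusted p = 0.772), with r = 0.353 without the 2 libraries farthest from the median and 0.268, 0.289 and 0.260 within the groups in the same order. The part of either cell type in the difference of Tlr3 was not tested.

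Tlr9 measured 0.618, 0.973 and 1.24 CPM at ZT3, 0.821, 0.915 and 3.69 CPM at ZT9, 1.99, 0.766 and 0.778 CPM at ZT15 and 1.24, 0.238 and 2.35 CPM at ZT21 in sham mice, around a median of 0.944. All 20 control mice with tumour cells were above that median. Tlr9 was thus higher with tumour cells by 0.59 (SE 0.18, 95% interval 0.22 to 0.96, limma, adjusted p = 0.0114), with a positive difference at each of the 4 timepoints. The call held without any 1 library (adjusted p from 0.00105 to 0.0307). The pDC markers summed to 335 to 502 CPM and the B cell markers to 83.3 to 138 CPM in sham mice, both above the ranges of control mice with tumour cells given for the genotypes. The part of these cells in the difference of Tlr9 was not tested.

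Tlr7 was -0.61 (95% interval -1.23 to 0.02, unadjusted p = 0.0556, adjusted p = 0.118), with 0.118 to 8.40 CPM in sham mice around a median of 3.42. It rested on single mice, being -0.37 (adjusted p = 0.302) without PBS ZT9 replicate 1 and -0.82 (adjusted p = 0.0244) without PBS ZT9 replicate 2. Tlr13 differed by 0.00 (95% interval -0.39 to 0.40) and Tlr2 by -0.04 (95% interval -0.22 to 0.14). The sum of Tlr1 and Tlr6 differed by 0.09 (SE 0.12, adjusted p = 0.602).

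**Figure D4:**
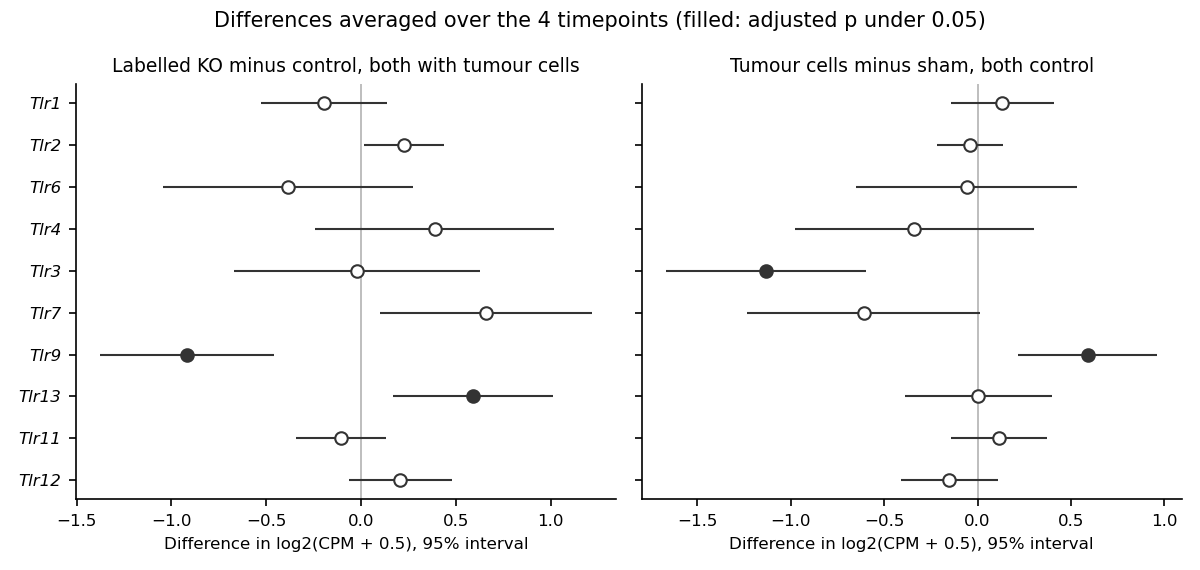
Difference in log2(CPM + 0.5) averaged over the 4 timepoints (points) with its 95% interval (lines) for each receptor, for the libraries labelled KO minus control mice (left, 12 and 20 libraries) and tumour cells minus sham (right, 20 and 12 libraries). Filled points have an adjusted p under 0.05, Tlr9 (-0.92) and Tlr13 (0.59) on the left and Tlr3 (-1.13) and Tlr9 (0.59) on the right.

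Other genes of the TLR pathway, a list of 44 of which 43 were listed and tested, were counted in the same way. None passed an adjusted p of 0.05 for rhythm, for ZT9 against ZT21 or for an interaction in any group (limma), and 4, 4 and 2 had an unadjusted p under 0.05 for rhythm in control mice with tumour cells, the libraries labelled KO and sham mice. Those are 9.30%, 9.30% and 4.65% of the list, against 9.2%, 10.5% and 7.38% of all genes. The counts were 6, 8 and 2 for ZT9 against ZT21 (14.0%, 18.6% and 4.65%, against 11.5%, 10.9% and 5.32% of all genes). They were 10 for genotype by time (23.3% against 18.3%) and 4 for treatment by time (9.30% against 11.9%). The smallest p-values belonged to Cd36, a scavenger receptor that assists TLR2, Chuk, a kinase of IκB, and Tlr8 for rhythm, to Tollip, an inhibitor, Traf3, a ubiquitin ligase, and Tlr8 for ZT9 against ZT21, and to Tlr8 and Ikbke, a kinase of interferon signalling, for the interactions.

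In the libraries labelled KO, 16 of the 43 genes were higher and 0 lower than in control mice, a share of 37.2% called against 33.7% of all genes (23.5% higher and 10.2% lower), and the median of the list was 0.18 against 0.10 for all genes. With median-of-ratios scaling 10 were higher and 1 lower (Tab2). Leaving out KO ZT21 replicate 3 gave 16 higher and 2 lower (Tab2 and Tab3), and leaving out KO ZT21 replicate 1 gave 13 higher and 0 lower. The co-receptor Cd14, which hands lipopolysaccharide to TLR4, rose by 1.03 (SE 0.23, adjusted p = 0.00136), and Cd36 rose by 0.97 (SE 0.26, adjusted p = 0.00464). Of the adaptors, Pik3ap1, also called BCAP, rose by 0.99 (SE 0.18, adjusted p = 0.000153), Tirap, which brings MyD88 to the membrane, by 0.41, Ticam2, which links TLR4 to TRIF, by 0.41 and Myd88 itself by 0.19. Of the chaperones, Hsp90b1, the endoplasmic reticulum chaperone gp96, rose by 0.31 and Unc93b1, which carries nucleic acid sensors to the endosome, by 0.27.

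Of the kinases, Map3k7 (TAK1) rose by 0.46, Chuk by 0.41, Tbk1 by 0.30, Ikbkg (NEMO) by 0.28 and Irak1 by 0.22. Among the inhibitors, Dok3 rose by 1.05, Socs1 by 0.63 (SE 0.07, adjusted p = 5.75e-08) and Tnfaip3 (A20) by 0.54. Socs1 had 102 to 140 CPM in the libraries labelled KO, 63.2 to 113 CPM in control mice with tumour cells and 94.3 to 164 CPM in sham mice. The calls of Myd88, Irak1, Unc93b1, Ikbkg, Tbk1 and Ticam2 were lost with median-of-ratios scaling. That of Ticam2 was also lost without the filter, with array weights, with the replicate block and in 20 of 32 fits that left out 1 library, that of Tbk1 with the block and in 7 of 32, and that of Irak1 in 2 of 32. Ticam2 and Tbk1 were lost without both libraries that stood apart as well. Cd14 and Cd36 are also genes of monocytes and macrophages, whose markers moved in the same direction.

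With tumour cells, 11 of the 43 genes were lower and 2 higher than in sham mice, a share of 30.2% against 37.9% of all genes (13.3% higher and 24.6% lower), with a median of -0.06 against -0.04 for all genes. The co-receptors Cd36, Cd14 and Cd180, a TLR4 homologue of B cells and DCs, fell by 1.51, by 1.39 and by 1.16. Pik3ap1 fell by 1.27, Dok3 by 0.80 and Socs1 by 0.57 (SE 0.07, adjusted p = 3.85e-07). The chaperones Cnpy4, Unc93b1 and Hsp90b1 fell by 0.48, by 0.42 and by 0.36, Irf7, the interferon regulatory factor downstream of TLR7 and TLR9, fell by 0.66, and Tlr8 fell by 0.58 at a mean of 0.255 CPM with tumour cells and 0.738 CPM in sham mice. The genes that were higher were Slc15a4 (0.33, adjusted p = 0.000919), an endosomal transporter that TLR7 and TLR9 signalling needs, and Ikbkb (0.29, adjusted p = 0.0196). With median-of-ratios scaling the 13 calls held, and Irak4, Traf3 and Rnf216 were added, which made 5 higher and 11 lower. Array weights gave 6 higher and 12 lower, and leaving out WT ZT3 replicate 3 alone gave 5 higher and 13 lower. With the replicate block Ikbkb and Tlr8 were lost, which left 11 calls, and Tlr8 was also lost without PBS ZT9 replicate 1, PBS ZT9 replicate 3 or PBS ZT15 replicate 3. The summed markers of monocytes and macrophages, which express Cd14 and Cd36, and of B cells, which express Cd180, were lower with tumour cells as well (419 to 1112 against 1819 to 3316 CPM, and 44.5 to 73.3 against 83.3 to 138 CPM). So were those of pDCs, which are known for high Irf7 (229 to 332 against 335 to 502 CPM), and of NK cells (4.80 to 20.3 against 39.5 to 351 CPM). The part of these cells was not tested.

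**Figure D5:**
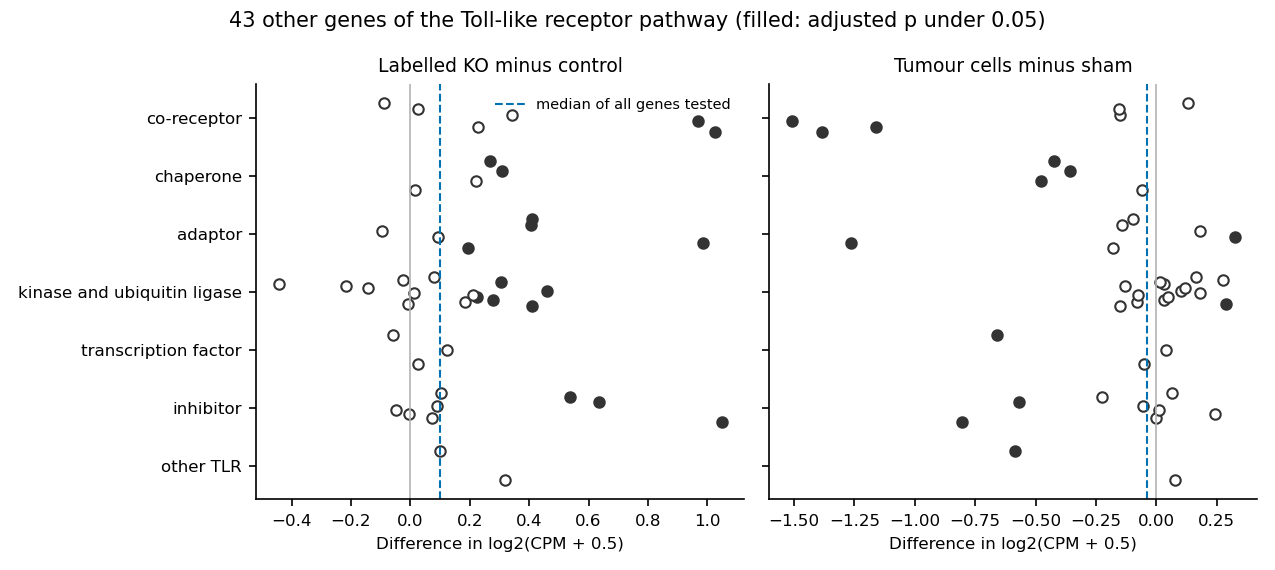
Difference in log2(CPM + 0.5) averaged over the timepoints for 43 other genes of the TLR pathway by role, for the libraries labelled KO minus control mice (left) and tumour cells minus sham (right). Filled points have an adjusted p under 0.05, and the dashed line is the median of all genes tested (0.10 and -0.04). In the left panel the 16 filled points are at positive differences, and in the right panel 11 of 13 are at negative ones.

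Relations between the receptors and cell type markers within conditions were computed for 40 pairs, 10 receptors with the cDC1, cDC2, pDC and B cell lists. None passed an adjusted permutation p of 0.05, and 1 passed unadjusted by Pearson's r. The 10 relations with the monocyte and macrophage list, added later, had none under an unadjusted p of 0.05 by Pearson's r, the smallest being that of Tlr3 given above. In the 40 pairs, the smallest unadjusted p was that of Tlr1 with the cDC2 markers (Pearson r = 0.343, permutation p = 0.0396, adjusted p = 0.774, Spearman rho = 0.343, permutation p = 0.0434), with r = 0.368 without the 2 libraries farthest from the median and 0.381, 0.417 and -0.0172 within control mice with tumour cells, the libraries labelled KO and sham mice.

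As a description, the genes whose deviations from the condition mean were most like those of a receptor over the 44 libraries were, for Tlr13, Atf6 (Pearson r = 0.81), Fam13b (0.81) and Zgpat (0.76), for Tlr2, Gapvd1 (0.77), Mfsd1 (0.73) and Idi1 (0.73), and for Tlr11, Zfp317 (0.74), Atp7a (0.70) and Arnt (0.68). For Tlr12 they were Rcan3 (0.72), Gusb (0.71) and Pds5a (0.69), for Tlr3 Pfn2 (0.67), Mtf2 (0.65) and Armc10 (0.65), and for Tlr9 Mrgprb1 (0.64), Zmynd11 (0.62) and Tex261 (0.61). For Tlr6 they were Zfp868 (0.66), Adat1 (0.66) and Ppil1 (0.63), for Tlr7 Nras (0.65), Nav2 (0.59) and Asic1 (0.58), for Tlr4 Caskin1 (0.59), Tbc1d31 (0.59) and Cd22 (0.59), and for Tlr1 Tbl1xr1 (0.58), Oat (0.57) and Gata4 (0.56). Each is the top of 11962 genes, and all points share libraries and depth. Among the receptors themselves the deviations of Tlr2 and Tlr13 were most alike (Pearson r = 0.51) and those of Tlr6 and Tlr9 least (-0.43). All of these r include KO ZT21 replicate 1, which held the highest Tlr2, Tlr9, Tlr12 and Tlr13 of all libraries, and none is given without it.

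BMAL1 binds the E-box CACGTG, a palindrome that reads the same on both strands. In RefSeq promoter windows of GRCm38.p6, from 250 bases before to 50 after a start, 8 of the 10 receptors had an entry (all but Tlr4 and Tlr7), and 1 of their 10 windows held the motif, a second start of Tlr1 (chr5:64932650-64932949, minus strand). Of all 32851 windows of that length 7.15% held it.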

How the data were processed

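Single reads of 50 bases from SMART-Seq cDNA were mapped by the authors to mm10 (STAR), and HTSeq assigned them to genes (version 0.9.1, per the processing notes). The authors deposited 1 table of CPM, counts scaled by library size, which holds all 44 libraries. Of the values of a library, 88.7 to 91.4% were whole multiples of 1 read (tolerance 0.01 reads), which gave the number of reads, and the rest were fractions, so no count model was used. No pair of libraries was identical. Each library is 1 mouse per the methods.

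Genes that reached 1 CPM in 5 or more libraries were tested on log2(CPM + 0.5) with limma (version 3.58.1, R 4.3.3) and Benjamini-Hochberg adjustment over 11963 genes, without a term for the replicate number. Averaged effects weight the 4 timepoints equally. The models were run on simulated log2 values with independent normal noise. These had no counting noise, differences in depth or outlying libraries, so that run does not cover the sparse receptors. Relations with markers used deviations from condition means and 100000 permutations within conditions (two-sided, Python 3.11.15, numpy 2.4.6). Exon lengths and positions were those of GENCODE on GRCm38. All receptors are named, and pathway genes where they passed the adjusted threshold or had the smallest p of a comparison, with the 3 most alike genes of each receptor. The receptors and lists were chosen with earlier results of these data known. Alternatives were pseudocounts of 1 and 0.1, no filter, a mean of at least 10 CPM, median-of-ratios scaling, weights per library, the replicate number as a block, any difference among timepoints for rhythm, and leaving out each library. Leaving out both libraries that stood apart, the sum of Tlr1 and Tlr6 and the monocyte list were added after the data were seen.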

Additional observations from a re-analysis of the deposited data

Results flagged for a closer look

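In groups of 5 control mice with tumour cells, 4 values lay far from the others of their condition by Dixon's test, among 40 groups of a receptor and a timepoint, and chance alone flags about 1 in 20 groups. Tlr1 was low in WT ZT3 replicate 5, at 10.1 CPM against 19.7 to 22.8 CPM in the other mice, and high in WT ZT21 replicate 1, at 35.2 CPM against 13.9 to 19.3 CPM. In WT ZT21 replicate 1 Tlr6 was listed at 0, and the sum of both genes was 35.2 CPM against 14.6 to 21.4 CPM in the other mice. In WT ZT3 replicate 5 the sum was 12.4 CPM against 20.5 to 24.7 CPM. Dixon's test was not run on the sum, which is the firmer value, so neither mark of Tlr1 is shown to hold for it. Tlr4 was 0.290 CPM in WT ZT3 replicate 4 and listed at 0 in the other mice of that condition, where any value above 0 would have been marked, so that this one carries no weight. It was 1.56 CPM in WT ZT9 replicate 1 against 0 to 0.451 CPM.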

How the results depend on the processing

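No receptor passed the adjusted threshold for rhythm, for ZT9 against ZT21 or for an interaction under any alternative run. For genotype averaged over time, 2 receptors were called as reported, and 1 with a mean of at least 10 CPM (5 receptors tested), with median-of-ratios scaling and without both libraries that stood apart, and leaving out 1 library gave 1 to 4. For treatment averaged over time, 2 were called, and 0 with a mean of at least 10 CPM, where Tlr3 and Tlr9 were not tested. Tlr9 kept its call for genotype in the other alternatives (adjusted p from 9.55e-06 to 0.0180) and for treatment (0.00720 to 0.0464), as did Tlr3 for treatment (0.000560 to 0.00558). Tlr2 passed for genotype with array weights (0.23, adjusted p = 0.0355) and without KO ZT21 replicate 3 (0.30, adjusted p = 0.0188), but was 0.13 (adjusted p = 0.350) with median-of-ratios scaling and 0.15 (adjusted p = 0.228) without KO ZT21 replicate 1. Tlr7 passed when any 1 of 6 particular libraries was left out (adjusted p from 0.0353 to 0.0497), but was 0.55 (adjusted p = 0.123) without KO ZT21 replicate 1. For treatment, leaving out 1 library took Tlr7 from -0.82 (adjusted p = 0.0244, without PBS ZT9 replicate 2) to -0.37 (adjusted p = 0.302, without PBS ZT9 replicate 1). Same-numbered mice did not deviate together (mean correlation from -0.0285 to 0.0295), so the replicate number was not taken as a pairing. An experiment or batch that the number does not follow was not tested. The replicate block gave 3 receptors for genotype, with Tlr7 added, 2 for treatment and 0 otherwise. Over all genes, calls for rhythm in control mice with tumour cells went from 3 to 18 with a mean of at least 10 CPM, 147 with array weights, 1 with the block, 632 for any difference among timepoints and 1 to 43 without 1 library. Those for ZT9 against ZT21 went from 27 to 54, 473, 15 and 3 to 67 in control mice (mean of at least 10 CPM, array weights, block, 1 library left out) and from 1 to 70 with array weights in the libraries labelled KO. For genotype by time they went from 6 to 53, with a mean of at least 10 CPM, and to 1071 with array weights, and without WT ZT3 replicate 3 to 311. For treatment by time they went from 0 to 38 without WT ZT15 replicate 2. Depth limits Tlr4, Tlr3 and Tlr9, and depth cannot be told apart from genotype or treatment. Mean levels were recomputed with median-of-ratios scaling, which moved them by less than 1 SD, and without each library. Leaving out 1 library of a group cannot move its mean by 1 SD, so that outcome carries no weight.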
